A study of Mus musculus with 9 samples.

Results

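Transcripts of 10 genes of the Notch pathway were followed in colon organoids: the receptors Notch1 and Notch2, the ligands Dll1, Dll4, Jag1 and Jag2, the receptor-modifying enzyme Lfng, and the targets Hes1, Hey1 and Nrarp. They were picked by name as receptors, ligands and targets of the pathway, out of 48795 genes in the table, and all 10 were found in it. A mean of 10 or more normalised counts over the 9 libraries was reached by 8 of them and these 8 were tested, whereas Dll4 and Hey1 stayed below it.

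Notch receptors sit on the cell surface and are activated by Delta or Jagged ligands on a neighbouring cell. Ligand binding exposes the receptor to ADAM proteases and then to gamma-secretase, which frees the intracellular domain to enter the nucleus and activate transcription with RBPJ. In the intestinal epithelium this signal maintains stem and progenitor cells and favours absorptive over secretory fate, largely through Hes1 and its repression of Atoh1.

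The organoids were grown from colonic crypts of WT mice and of AHR-deficient mice, in WENR medium, which holds Wnt3a, EGF, Noggin and R-spondin and keeps cells in a stem-like state. The study's methods also list SB202190, an ALK5 inhibitor and nicotinamide in this medium. Per the study's methods, the deficient mice carried Villin-Cre, which is active in the intestinal epithelium, with Ahr fl/fl alleles, and the WT mice were littermates, all on a C57BL/6 background. Fully grown organoids received DMSO, the solvent, or 5 nM FICZ, a high-affinity ligand of the transcription factor AHR, for 4 h. The groups were WT DMSO (2 libraries), WT FICZ (3 libraries), AHR KO DMSO (2 libraries) and AHR KO FICZ (2 libraries). The study's methods describe the organoids as biological replicates of each genotype. The labels give neither the age of the animals nor the animal behind each library, so p-values measure the spread between these libraries.

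The sum of normalised counts ranged from 23177058 to 25033827 over the libraries. The labels were checked on AHR and its targets. Cyp1a1, the classical AHR target, lay between 0 and 5.84 normalised counts in the 4 DMSO libraries, between 6988 and 7958 in WT FICZ, and at 100.3 and 138.8 in the libraries labelled AHR KO FICZ. Cyp1b1, another AHR target, was at 25.4 and 34.5 in AHR KO DMSO against 1078 and 1632 in WT DMSO, and at 137 and 222 in AHR KO FICZ against 8898 to 10600 in WT FICZ. Ahr itself was not lower in the libraries labelled AHR KO, at 1346 to 1443 normalised counts against 783 to 858 in WT, and a count per gene cannot show whether the floxed exon was lost. The name AHR KO is used here for the libraries so labelled. Epithelial markers (8 genes such as Epcam and Vil1) summed to between 217270 and 237960 normalised counts in each library. Endothelial markers, which matter since endothelium is rich in Notch ligands, summed to between 11.2 and 57.2, mostly Flt1 (5.65 to 55.3), with Emcn and Cldn5 at 0 in every library. Markers of fibroblasts and smooth muscle summed to between 60.3 and 115.3 in WT and between 22.6 and 42.4 in AHR KO, with Lum at 0. Most of that sum and of its gap between genotypes was Pdgfrb, at 55.7 to 110.1 in WT and 15.3 to 34.5 in AHR KO, while none of the other 9 genes passed 4.34 in any library. Immune markers summed to between 481.1 and 724.7, nearly all Cd68 (475.3 to 712), with Ptprc and Adgre1 at 0, and markers of enteric neurons and glia to between 66.1 and 97.3 in WT and between 19.7 and 47.2 in AHR KO, mostly Elavl4 (57.0 to 85.8 and 11.3 to 40.6), with Sox10 and S100b at 0. The part of these markers in the differences between genotypes was not tested. In bulk RNA, fewer cells of a type cannot be told apart from less RNA per cell.

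The amounts of different genes were compared per kilobase of exon. Hes1 was the most abundant member, with a mean of 538.1 normalised counts per kilobase over the 9 libraries (498.8 to 580.3), and no library of another member reached its range. Nrarp followed at 350.1 (298.3 to 397.2), then Jag2 at 205.3 (155.3 to 299.4), Notch2 at 194.2 (141.4 to 236.6) and Jag1 at 153.7 (105.2 to 202.1), whose ranges overlapped. Lfng stood at 86.2 (56.3 to 131.3) and Notch1 at 70.9 (48.4 to 90.2), again with overlapping ranges. Dll1, Dll4 and Hey1 were near the bottom of the scale, with means of 3.19, 0.82 and 0.65 normalised counts per kilobase. Of the receptors outside the members, Notch3 had group means of 33.7 (WT DMSO) to 70.6 (AHR KO FICZ) normalised counts per kilobase. In AHR KO it was at 51.0 in DMSO and 70.6 with FICZ, beside 64.4 and 85.5 for Notch1. Notch4 had group means of at most 1.90. Among the members' ligands, Jag1 and Jag2 were high and the Delta ligands low.

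**Figure D1:**
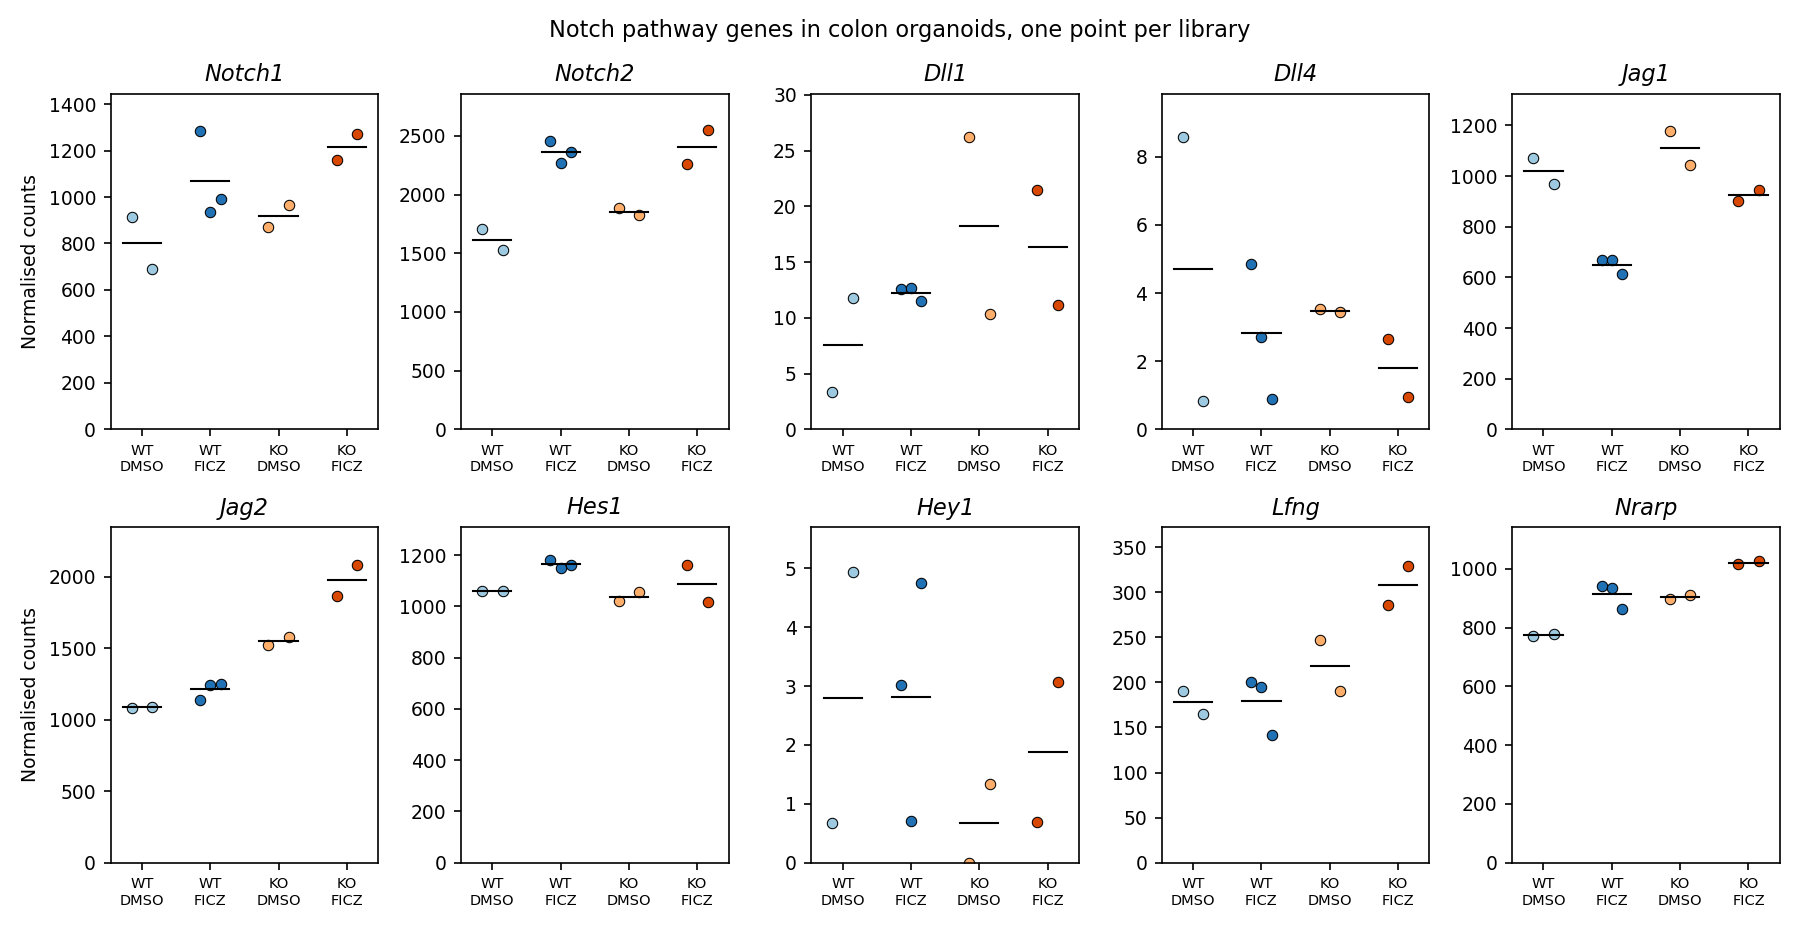
Normalised counts (y axis, each from 0 and with its own range) of the 10 Notch genes in each library, by group. Points are libraries and lines are group means. Jag1 was lower in all 3 WT FICZ libraries than in any other library, and Jag2 was higher in all 4 AHR KO libraries than in any WT library.

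Upstream sequences are shown for called members, because the ligand-bound AHR binds a short core, GCGTG, and RBPJ binds TGGGAA. They are RefSeq sequences on GRCm38.p6, 5′ to 3′ on the strand of the gene, with every match to GCGTG or its complement CACGC and to TGGGAA or its complement TTCCCA in capitals. The 250 bases before the RefSeq start were taken, and only those that also precede the first base of the GENCODE gene are printed. The Jag2 bases all lie inside the GENCODE gene and are not printed. The regions are chr2:137116645-137116770 (minus strand) for Jag1, chr3:98013288-98013526 (plus) for Notch2, chr5:140607091-140607319 (plus) for Lfng and chr2:25180508-25180757 (plus) for Nrarp.

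Jag1: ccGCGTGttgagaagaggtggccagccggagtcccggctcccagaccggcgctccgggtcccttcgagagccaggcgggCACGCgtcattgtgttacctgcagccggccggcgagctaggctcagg

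Notch2: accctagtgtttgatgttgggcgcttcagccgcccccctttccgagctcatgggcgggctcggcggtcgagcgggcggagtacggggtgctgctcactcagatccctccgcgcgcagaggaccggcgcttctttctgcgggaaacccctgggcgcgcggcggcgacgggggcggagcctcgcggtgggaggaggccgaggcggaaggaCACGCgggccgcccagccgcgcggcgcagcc

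Lfng: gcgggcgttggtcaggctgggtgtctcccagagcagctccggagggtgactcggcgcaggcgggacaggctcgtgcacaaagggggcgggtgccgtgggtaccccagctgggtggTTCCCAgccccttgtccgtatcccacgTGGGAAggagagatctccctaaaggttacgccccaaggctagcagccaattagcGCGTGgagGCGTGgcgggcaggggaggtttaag

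Nrarp: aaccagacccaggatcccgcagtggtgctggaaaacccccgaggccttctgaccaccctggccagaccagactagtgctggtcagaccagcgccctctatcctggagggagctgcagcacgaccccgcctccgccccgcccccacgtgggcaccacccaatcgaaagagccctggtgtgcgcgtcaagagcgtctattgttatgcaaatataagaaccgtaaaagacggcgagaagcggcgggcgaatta

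In windows of 300 bases, 250 before and 50 after the start, GCGTG or its complement occurred in 32.4% of the 32851 RefSeq promoters and TGGGAA or its complement in 25.6%. A promoter entry was found for 8 of the 10 members. Jag1 held 2 AHR cores, at -248 and -171 from the start. Jag2 held 2, at -168 and 18, Notch2 held 1 at -42, and Lfng held 2 at -54 and -46. Nrarp held no AHR core. Members that were not called held it too, Notch1 at 31, Dll4 at -195 and Dll1 in both of its promoters. Hes1 and Hey1 had no entry. Of the 8 members searched, Lfng held the RBPJ core, at -135 and -108, with no AHR core overlapping it, and the others held none. These are letter matches, which describe the windows and no more.

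FICZ against DMSO in WT addresses the response to the AHR ligand in WT organoids. In this comparison 2 of the 8 tested members were called higher, Notch2 and Nrarp, and 1 was called lower, Jag1. Over all 12741 genes tested, 15.1% were called higher and 15.7% lower, so the members' count stands beside a broad response. The median log2 change was 0.20 over the 8 members and -0.01 over all genes, neither corrected for the GC trend described below.

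Of the receptors, Notch2 (chr3:98013527-98150361) rose with FICZ. It stood at 1706 and 1525 normalised counts in WT DMSO and at 2454, 2268 and 2367 in WT FICZ, so the groups did not overlap. The log2 change was 0.55 (SE 0.07, adjusted p = 0.00058). Notch1 (chr2:26457903-26516663), the other receptor of the stem cell compartment, stood at 915 and 688 in WT DMSO and at 1284, 935 and 992 in WT FICZ. Its groups did not overlap either, but the lowest FICZ library lay close to the higher DMSO library, and the log2 change of 0.42 (SE 0.15, adjusted p = 0.0536) did not pass. The change was 0.21 without WT DMSO replicate 3 and 0.62 without WT DMSO replicate 2.

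Of the ligands, Jag1 (chr2:137081456-137116644), a ligand that is anchored in the membrane, fell. It was at 1073 and 967 normalised counts in WT DMSO and at 668, 669 and 613 in WT FICZ, with every FICZ library well below both DMSO libraries. The log2 change was -0.65 (SE 0.08, adjusted p = 0.000477), that is 0.638 times the DMSO level. Jag2 (chr12:112907819-112929776), its close relative, was at 1082 and 1092 in WT DMSO and at 1139, 1247 and 1253 in WT FICZ. All FICZ libraries were higher, but the log2 change of 0.16 (SE 0.07, adjusted p = 0.109) did not pass. Dll1 (chr17:15367354-15376872), the Delta ligand of secretory precursors, was at 3.37 and 11.7 in WT DMSO and at 12.6, 12.7 and 11.5 in WT FICZ, which gave a log2 change of 0.83 (SE 0.56, adjusted p = 0.291). This change was 0.055 without WT DMSO replicate 2 and 1.60 without WT DMSO replicate 3. Dll4 was at 8.57 and 0.83 in WT DMSO and at 4.84, 2.72 and 0.88 in WT FICZ, too low for a test.

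Among the targets, Nrarp (chr2:25180758-25183339), a Notch-induced inhibitor of the Notch transcription complex, rose slightly. It was at 770.1 and 779 normalised counts in WT DMSO and at 943, 935 and 864 in WT FICZ, without overlap, for a log2 change of 0.24 (SE 0.06, adjusted p = 0.0181). This call was lost with a replicate block by line within genotype (0.21, adjusted p = 0.0815), and without either WT DMSO library or WT FICZ replicate 1. An antisense gene, Gm38287, overlaps Nrarp and was at most at 8.02 in any library. Hes1 (chr16:30064384-30067796), the repressor through which Notch acts on Atoh1, was at 1061 and 1060 in WT DMSO and at 1182, 1149 and 1162 in WT FICZ. The libraries were higher with FICZ, but the log2 change of 0.14 (SE 0.07, 95% interval -0.01 to 0.28, adjusted p = 0.152) did not pass. Hey1, a related repressor, was at 0.67 and 4.94 in WT DMSO and at 3.01, 0.71 and 4.75 in WT FICZ. Lfng (chr5:140607320-140615545), a glycosyltransferase that changes which ligands a Notch receptor answers to, was at 190.2 and 165 in WT DMSO and at 200.2, 195 and 141 in WT FICZ, with overlapping groups and a log2 change of -0.00 (SE 0.18, adjusted p = 0.988).

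FICZ changes differed with the GC content of the transcript across all genes. In WT the median log2 change was -0.18 in the fifth of genes with the lowest GC content and 0.26 in the fifth with the highest, and in AHR KO the medians were -0.20 and 0.28. With the trend of GC content and transcript length removed, the WT change of Notch2 was 0.34 (adjusted p = 0.00395) and that of Jag1 was -0.64 (adjusted p = 0.000749), both still called. Nrarp then had a log2 change of 0.10 (adjusted p = 0.299) and was not called. Notch1, which had not passed before, was at 0.11 (adjusted p = 0.622). Jag2, which has the highest GC content of the members at 61.9%, turned to -0.30 (adjusted p = 0.0273) and was called lower. Whether the trend is part of the response to FICZ or of the library preparation was not tested.

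FICZ against DMSO in the organoids labelled AHR KO gives the response in the AHR-deficient genotype, as far as the labels hold. In it, 2 of the 8 tested members were called higher, Notch2 and Jag2, and 0 were called lower, where 10.2% of all genes were called higher and 9.48% lower. The median log2 change over the members was 0.26, not corrected for the GC trend.

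Notch2 was at 1884 and 1825 normalised counts in AHR KO DMSO and at 2262 and 2551 in AHR KO FICZ, and Jag2 at 1526 and 1583 against 1865 and 2086. Neither gene's groups overlapped, and the log2 changes were 0.37 (SE 0.08, adjusted p = 0.0106) for Notch2 and 0.34 (SE 0.07, adjusted p = 0.0125) for Jag2. Jag1 was at 1178 and 1044 in AHR KO DMSO and at 900.3 and 947 in AHR KO FICZ. Both FICZ libraries were below both DMSO libraries, but the log2 change of -0.26 (SE 0.09, adjusted p = 0.0603) did not pass. Once the GC and length trend was taken out, neither Notch2 (0.19, adjusted p = 0.121) nor Jag2 (-0.12, adjusted p = 0.492) was called. The Notch2 call was also lost without AHR KO DMSO replicate 1 (adjusted p = 0.0673), AHR KO DMSO replicate 3 (0.0611) or AHR KO FICZ replicate 3 (0.0699), and the Jag2 call without the first (0.104) or the last of these (0.0828).

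The other members did not pass in AHR KO. Notch1 was at 869 and 965 normalised counts with DMSO and at 1161 and 1273 with FICZ, a log2 change of 0.41 (SE 0.16, adjusted p = 0.1003). Lfng was at 247 and 190.1 with DMSO and at 286 and 329 with FICZ, a log2 change of 0.50 (SE 0.19, adjusted p = 0.0989). Nrarp was at 896 and 910 with DMSO and at 1015 and 1026 with FICZ, a log2 change of 0.18 (SE 0.07, adjusted p = 0.101). In these genes every FICZ library exceeded every DMSO library. With so few libraries in a group such a separation can arise by chance, and the share of all genes showing it was not computed. With the GC and length trend removed the changes were 0.11 for Notch1 (adjusted p = 0.721), 0.19 for Lfng (adjusted p = 0.674) and 0.025 for Nrarp (adjusted p = 0.888). Hes1 showed no such separation, at 1021 and 1055 with DMSO and at 1159 and 1016 with FICZ. Dll1 was at 26.2 and 10.3 with DMSO and at 21.5 and 11.2 with FICZ, Dll4 at 3.53 and 3.44 against 2.65 and 0.95, and Hey1 at 0 and 1.34 against 0.69 and 3.07.

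Whether the FICZ change differed between genotypes was tested as an interaction, in which a positive value means a higher log2 change in WT. By limma, 0 of the 8 members were called higher and 0 lower, where 0.377% of all genes were called higher and 0.0706% lower. At an unadjusted p under 0.05 there was 1 member, Jag1, and 952 genes of all. The interaction for Jag1 was -0.38 on the log2 scale (95% interval -0.65 to -0.12, adjusted p = 0.372, between 0.291 and 0.856 over the alternatives). Jag1 was thus called for WT alone, while the test of the genotype difference itself did not pass. For Notch2 the interaction was 0.18 (95% interval -0.06 to 0.41, adjusted p = 0.794), for Jag2 -0.19 (95% interval -0.41 to 0.04, adjusted p = 0.752) and for Lfng -0.51 (95% interval -1.09 to 0.08, adjusted p = 0.742). These intervals still allow differences as large as several of the changes themselves.

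**Figure D2:**
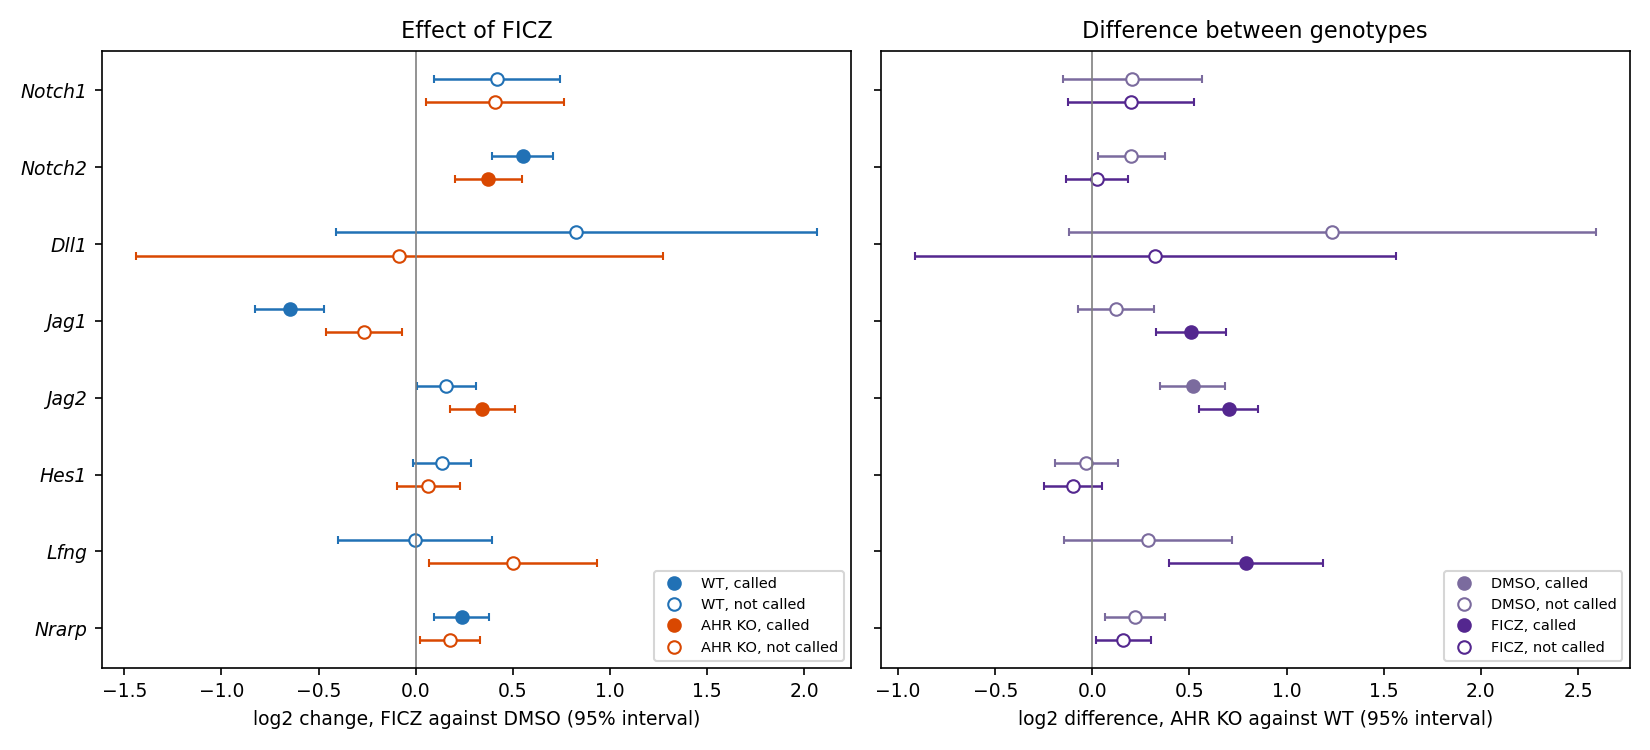
Log2 changes of the 8 tested members (points) with 95% intervals (bars), for FICZ against DMSO in each genotype (left) and AHR KO against WT under each treatment (right). Filled points were called at an adjusted p under 0.05. Jag1 fell in WT by 0.65 on the log2 scale, and Jag2 was higher in AHR KO under both treatments.

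**Figure D3:**
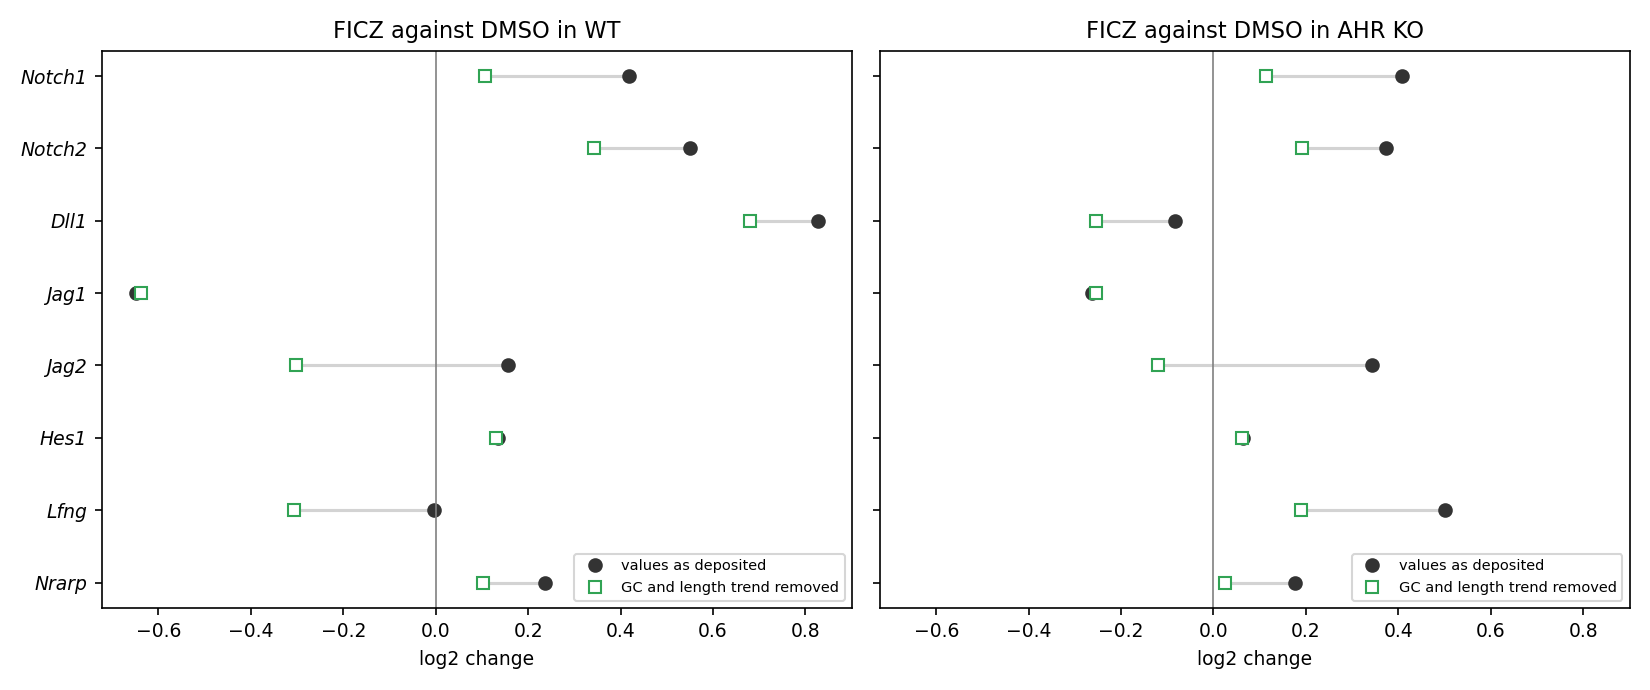
Log2 FICZ change of the 8 tested members (x axis) in WT and AHR KO from the values as deposited (filled circles) and with the GC and length trend removed (open squares). Jag1 and Hes1 barely moved, while Jag2 crossed 0 in both genotypes.

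AHR KO against WT under DMSO compares the genotypes with no added ligand. Of the 8 tested members 1 was called higher, Jag2, and 0 lower, where 4.21% of all genes were called higher and 4.83% lower. Jag2 stood at 1526 and 1583 normalised counts in AHR KO and at 1082 and 1092 in WT, so the genotypes lay well apart. The log2 difference was 0.52 (SE 0.07, adjusted p = 0.0023), and with the GC and length trend removed it was 0.54 (adjusted p = 0.00448). Nrarp was 0.22 higher on the log2 scale (SE 0.07, adjusted p = 0.079) and Notch2 0.20 higher (SE 0.08, adjusted p = 0.146), and neither passed. The log2 difference of Jag1 was 0.12 (95% interval -0.07 to 0.32, adjusted p = 0.446), that of Hes1 -0.03 (95% interval -0.19 to 0.13, adjusted p = 0.841) and that of Dll1 1.23 (95% interval -0.12 to 2.59, adjusted p = 0.253). The Dll1 value rested on one AHR KO library at 26.2 and one WT library at 3.37.

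AHR KO against WT under FICZ compares the genotypes once the ligand is present. Here 3 of the 8 members were called higher, Jag1, Jag2 and Lfng, and 0 lower, where 9.48% of all genes were called higher and 10.5% lower. The median log2 difference over the members was 0.26. This comparison shares its libraries with both FICZ comparisons.

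Jag2 showed the strongest genotype difference by adjusted p, at 1865 and 2086 normalised counts in AHR KO FICZ against 1139 to 1253 in WT FICZ, a log2 difference of 0.70 (SE 0.07, adjusted p = 7.2e-05). Jag1 was at 900.3 and 947 in AHR KO FICZ against 613 to 669 in WT FICZ, a log2 difference of 0.51 (SE 0.08, adjusted p = 0.00157). Lfng was at 286 and 329 against 141 to 200.2, a log2 difference of 0.79 (SE 0.18, adjusted p = 0.0111). For all 3 genes both AHR KO libraries were above every WT library. Without AHR KO FICZ replicate 3 the Lfng call was lost (adjusted p = 0.0999). Nrarp (0.16, adjusted p = 0.105), Notch1 (0.20, adjusted p = 0.382), Dll1 (0.32, adjusted p = 0.734), Hes1 (-0.10, adjusted p = 0.324) and Notch2 (0.02, adjusted p = 0.848) did not pass, and the 95% interval of the Notch2 difference was -0.13 to 0.18.

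The balance of the Jagged transcripts was described by the ratio of Jag1 to Jag2, each per kilobase, with no test. It was 1.19 and 1.06 in WT DMSO and 0.701, 0.642 and 0.585 in WT FICZ. In AHR KO it was 0.922 and 0.789 with DMSO and 0.577 and 0.543 with FICZ. Jag1 exceeded Jag2 only in the WT DMSO libraries, and the groups WT DMSO, AHR KO DMSO and the FICZ libraries did not overlap. The ratio of Notch2 to Notch1 lay between 2.46 and 3.20 in all 9 libraries, with overlapping groups. With the GC and length trend removed, the log2 FICZ changes of Jag1 and Jag2 were -0.64 and -0.30 in WT and -0.25 and -0.12 in AHR KO, so Jag1 remained the one with the larger decrease in value in each genotype, without a test of the difference.

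**Figure D4:**
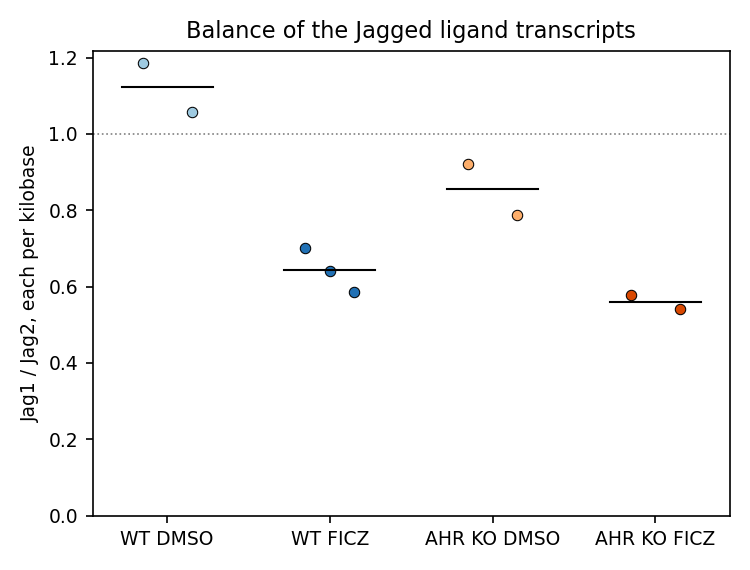
Ratio of Jag1 to Jag2 normalised counts, each per kilobase of exon (y axis, from 0), in each library. Points are libraries, lines are group means and the dotted line marks equal amounts. WT DMSO lay at 1.06 and 1.19, and all FICZ libraries lay between 0.543 and 0.701.

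The rest of the pathway was read from lists of 58 genes beside the members, of which 41 reached the mean of 10 and were tested. With FICZ in WT 9 were called higher and 6 lower, and with FICZ in AHR KO 9 were called higher and 1 lower. Over all genes 15.1% were called higher and 15.7% lower in WT, and 10.2% and 9.48% in AHR KO. The median log2 changes over the 41 were 0.14 and 0.17. With the GC and length trend removed the calls fell from 15 to 6 in WT and from 10 to 2 in AHR KO. Leaving out 1 library at a time gave at least 6 calls in WT (without either WT DMSO library) and 2 in AHR KO (without AHR KO DMSO replicate 1). By limma the interaction called 0 of them, with 5 at an unadjusted p under 0.05. Between genotypes under FICZ, 11 were called higher in AHR KO and 2 lower, beside 9.48% and 10.5% of all genes. Under DMSO 3 were called higher and 1 lower, beside 4.21% and 4.83%. The one called lower was Dclk1, which passed the mean of 10 through the WT libraries.

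Among other receptors and ligands, Notch3 was the one called gene. It was 0.40 higher on the log2 scale with FICZ in WT (SE 0.14, adjusted p = 0.0491), and the AHR KO libraries exceeded WT by 0.61 in DMSO (adjusted p = 0.0311) and by 0.67 with FICZ (adjusted p = 0.00659). Its WT FICZ change was 0.01 with the GC and length trend removed, and 0.19 without WT DMSO replicate 3 (adjusted p = 0.387). The DMSO difference between genotypes was not called without WT DMSO replicate 3 (0.40, adjusted p = 0.188), AHR KO DMSO replicate 1 (adjusted p = 0.132) or AHR KO DMSO replicate 3 (adjusted p = 0.1600), nor the FICZ difference without AHR KO FICZ replicate 3 (adjusted p = 0.0797). Of 7 tested genes for ligand endocytosis and receptor glycosylation, 3 rose with FICZ in WT and 0 fell, where 15.1% of all genes were called higher and 15.7% lower. They were Neurl1b, a ubiquitin ligase that acts on ligands (0.54, adjusted p = 0.00653), Pofut1, which adds the O-fucose that Lfng extends (0.38, adjusted p = 0.021), and Rfng, a relative of Lfng (0.30, adjusted p = 0.0485). In AHR KO Mib2 and Rfng rose, by 0.41 and 0.39. With the GC and length trend removed only Pofut1 of these kept its call (0.32, adjusted p = 0.0485). Neurl1b was then at 0.34 (adjusted p = 0.0507) and Rfng at -0.02 (adjusted p = 0.911) in WT, and Mib2 at -0.01 (adjusted p = 0.973) and Rfng at 0.06 (adjusted p = 0.8001) in AHR KO.

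Of 8 tested receptor protease genes, 3 rose with FICZ in WT and 0 fell, beside the 15.1% and 15.7% of all genes. They were Aph1a, Psen2 and Psenen, which encode subunits of gamma-secretase. Aph1a was at 2174 and 2184 normalised counts in WT DMSO and at 2934, 3098 and 3057 in WT FICZ, and at 2071 and 2296 against 3017 and 2942 in AHR KO. Its log2 change was 0.48 in WT (SE 0.06, adjusted p = 0.000412) and 0.45 in AHR KO (SE 0.06, adjusted p = 0.00227), and both stayed called with the GC and length trend removed (0.37 and 0.32). Psen2 rose by 0.46 in WT and 0.50 in AHR KO, and Psenen by 0.25 in WT. These calls were lost with the trend removed, at 0.31 (adjusted p = 0.140) and 0.34 (adjusted p = 0.210) for Psen2 and 0.23 (adjusted p = 0.0801) for Psenen.

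Of 8 genes of the nuclear complex and its corepressors, 2 rose with FICZ in WT (Ep300 and Spen) and 3 fell (Maml2, Snw1 and Cir1), against 15.1% and 15.7% of all genes. Snw1, which binds the Notch intracellular domain and also works in splicing, had log2 changes of -0.34 in WT (adjusted p = 0.00125) and -0.34 in AHR KO (adjusted p = 0.00442). With the GC and length trend removed these were -0.17 (adjusted p = 0.0436) and -0.16 (adjusted p = 0.124). The other WT calls of this list were then lost. Spen went from 0.44 to 0.06 (adjusted p = 0.663) and Ep300 from 0.23 to 0.11 (adjusted p = 0.163). Maml2 went from -0.46 to -0.41 (adjusted p = 0.0798), about as large as before, and Cir1 from -0.46 to -0.30 (adjusted p = 0.0564). In AHR KO Ep300, a coactivator, rose by 0.33 with FICZ (adjusted p = 0.0142) and stayed called with the trend removed (0.23, adjusted p = 0.0454), but not without AHR KO DMSO replicate 1 (adjusted p = 0.0670), AHR KO DMSO replicate 3 (adjusted p = 0.0858) or AHR KO FICZ replicate 3 (adjusted p = 0.0832). Rbpj itself was not called in any of the 5 comparisons.

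Dtx4, a ubiquitin ligase of the Deltex family that acts on Notch receptors, showed the largest called genotype difference among the trafficking genes. It was at 576 and 488 normalised counts in WT DMSO, 336, 307 and 323 in WT FICZ, 928 and 932 in AHR KO DMSO, and 840 and 1010 in AHR KO FICZ. WT FICZ libraries were the lowest and all AHR KO libraries the highest. The log2 change with FICZ was -0.72 in WT (SE 0.10, adjusted p = 0.00088), while the AHR KO libraries exceeded WT by 0.81 in DMSO (adjusted p = 0.00177) and by 1.51 with FICZ (adjusted p = 8.2e-06). The interaction was -0.71 (95% interval -1.04 to -0.37, adjusted p = 0.111) and did not pass. Fbxw7, a ubiquitin ligase subunit that directs the Notch intracellular domain to degradation, changed by -0.29 with FICZ in WT (adjusted p = 0.0165).

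Other called genes of the lists were Furin, the protease that matures Notch receptors (0.24, adjusted p = 0.0427), and Dtx2, another Deltex gene (0.45, adjusted p = 0.0314), both higher with FICZ in AHR KO. Neither they nor Fbxw7 kept the call with the GC and length trend removed. Furin was then at 0.02 (adjusted p = 0.878) and Dtx2 at 0.31 (adjusted p = 0.177) in AHR KO, and Fbxw7 at -0.21 (adjusted p = 0.0859) in WT. Under FICZ, AHR KO exceeded WT for Neurl1a (1.58, adjusted p = 0.00857), Maml2 (0.49, adjusted p = 0.0381), Mib2 (0.38, adjusted p = 0.0404), Poglut1 (0.27, adjusted p = 0.0479) and Adam17 (0.21, adjusted p = 0.0404), and was below it for Maml3 (-0.52, adjusted p = 0.0187) and Psenen (-0.28, adjusted p = 0.0317). Several of these calls lay near the threshold. Over 21 alternatives the call held in 9 for Mib2, 10 for Poglut1, 10 for Adam17, 11 for Maml2, 14 for Psenen and 16 for Maml3, and for Neurl1a in 19 of 20. With the GC and length trend removed it was lost for Mib2 (0.39, adjusted p = 0.0752), Poglut1 (0.25, adjusted p = 0.0513) and Psenen (-0.25, adjusted p = 0.0606). Their differences stayed about as large as before.

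Of the 8 genes listed as other targets, 3 reached the mean of 10, and all 3 were called higher in AHR KO under FICZ. Of all genes 9.48% were called higher there. Whether these 3 answer to Notch in these organoids was not tested, so they are no measure of Notch output. Under FICZ, AHR KO exceeded WT for Ccnd1, a cyclin, by 0.68 (adjusted p = 4.5e-05), for Id1 by 0.57 (adjusted p = 0.000634) and for Hes6 by 0.46 (adjusted p = 0.00299). The member targets Hes1 (-0.10, adjusted p = 0.324) and Nrarp (0.16, adjusted p = 0.105) did not pass. Ccnd1 was also higher in AHR KO under DMSO (0.60, adjusted p = 0.00056). With FICZ in AHR KO, Hes6 rose by 0.42 (adjusted p = 0.0109) and Id1 by 0.32 (adjusted p = 0.0278). Neither call held with the GC and length trend removed, with Hes6 at 0.0048 (adjusted p = 0.985) and Id1 at 0.20 (adjusted p = 0.168). Genes that loss of Notch signalling is known to release ranged widely. Sox4 lay between 2582 and 3912 normalised counts. Atoh1, the secretory master regulator that Hes1 represses, lay between 2.05 and 19.5 normalised counts in WT and between 1.075 and 7.21 in AHR KO. Muc2, the goblet cell mucin, lay between 73.1 and 435 in WT and between 73.4 and 156 in AHR KO. Tff3 lay between 15.6 and 53.9 in WT and between 3.13 and 19.9 in AHR KO. Spdef (7.20 to 24.7 in WT, 1.60 to 2.30 in AHR KO) and Reg4 (5.11 to 32.8 and 0.97 to 6.42) were too low for a test. Of 12 such genes 6 were tested and 1 was called with FICZ in WT, Sox4, with a log2 change of -0.35 (adjusted p = 0.0127), beside 15.7% of all genes called lower. Without WT DMSO replicate 2 this change was -0.18 (adjusted p = 0.116) and was not called. Under FICZ, AHR KO exceeded WT by 0.33 for Sox4 (adjusted p = 0.0228), a call lost without WT FICZ replicate 3 or either AHR KO FICZ library. Foxa2 (-0.29, adjusted p = 0.490), Muc2 (-0.59, adjusted p = 0.568) and Tff3 (-1.71, adjusted p = 0.0971) went the other way in this comparison and were not called. Dclk1, a tuft cell marker, was at 31.7 and 51.8 normalised counts in WT DMSO, 44.1, 11.6 and 16.8 in WT FICZ, 5.27 and 3.27 in AHR KO DMSO and 11.7 and 9.86 in AHR KO FICZ. Chga, an enteroendocrine marker, had group means of 11.5 (WT DMSO), 14.0 (WT FICZ), 8.69 (AHR KO DMSO) and 8.34 (AHR KO FICZ). Dclk1 and Chga passed the mean of 10 through the WT libraries, so their genotype tests are not given.

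**Figure D5:**
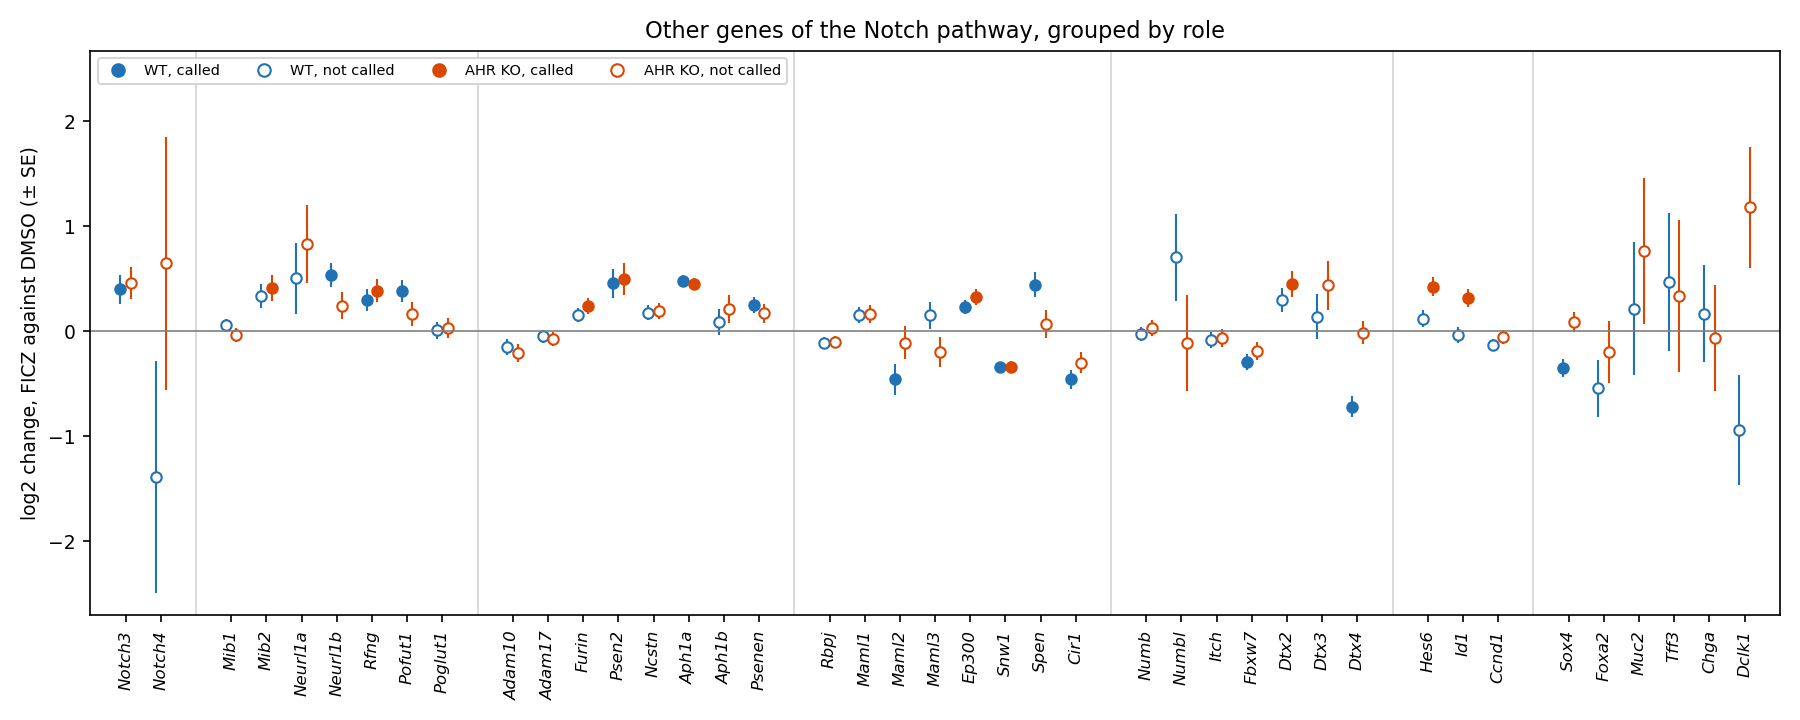
Log2 FICZ change (y axis, bars are SE) of the 41 other tested pathway genes in WT and AHR KO. Vertical lines separate, from left, receptors, ligand endocytosis and glycosylation, proteases, nuclear complex, trafficking, other targets and secretory genes. Filled points were called, among them Aph1a in both genotypes and Dtx4 in WT alone.

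Genes with the pattern most like each called member were found by Pearson's r of log2 values over the 9 libraries, among 10580 protein-coding genes. They share libraries, depth and the GC trend, so r is only a description. For Jag1 they were Ube2r2 (0.983), Pgm2l1 (0.980) and Trim44 (0.979), and for Jag2 Klhl21 (0.989), Tinagl1 (0.989) and Agrn (0.981). For Notch2 they were Pwwp2b (0.987) and Ormdl3 (0.975), for Nrarp Ajuba (0.972), Epha2 (0.967) and Cdon (0.965), and for Lfng Csrp1 (0.961), Nfkb1 (0.950) and Znrf3 (0.945). No other member was among them.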

How the data were processed

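RNA was sequenced from 9 libraries, and the authors deposited normalised counts per gene, a signal that need not be whole. The submitters' processing notes name STAR 2.5.2a, RSEM 1.2.31 and DESeq2 1.16.1 on GRCm38, and the study's methods name a stranded, rRNA-depleted library kit. How strand was used in counting is not given in the sources used here. Of the low values, 61.4% to 66.9% lay within 0.1 of a whole multiple of 1 read, too few to recover whole reads, so no count model was used. Symbols came from GENCODE M21, matched to 48435 identifiers (99.26%). Values were transformed as log2(value + 1), which understates changes of low genes. The 12741 genes with a mean of 10 or more were fitted with limma 3.58.1 in R 4.3.3 (4 groups, eBayes with trend), with two-sided p-values adjusted over all genes tested (Benjamini-Hochberg) and called under 0.05. The fit was tested on simulated data, whose outcome is not given here. No 2 libraries of a group were copies (chi-square per gene 7.26 to 18.1). All 10 members are named, other pathway genes where called, and up to 3 most alike genes. Some genes of the lists are not reported here and are left out of their counts. The members and lists were chosen with earlier results of these data known. Alternatives covered pseudocounts 0.1 and 10, filters, scaling, blocks, GC content and each library left out.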

Additional observations from a re-analysis of the deposited data

Results flagged for a closer look

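The 8 tested members and the 41 other tested pathway genes were searched for FICZ libraries on opposite sides of the DMSO libraries in the genotypes. Sox4, a transcription factor of secretory differentiation, was the gene found. The share of all genes with this pattern was not computed, and with 2 or 3 libraries in a group it can arise by chance. It was at 3912 and 3101 normalised counts in WT DMSO and at 2841, 2582 and 2775 in WT FICZ, all below both DMSO libraries. In AHR KO it was at 3274 and 3170 with DMSO and at 3408 and 3453 with FICZ, both above. The log2 change passed in WT (-0.35, adjusted p = 0.0127), though not without WT DMSO replicate 2 (-0.18, adjusted p = 0.116), and did not in AHR KO (0.09, 95% interval -0.12 to 0.30, adjusted p = 0.544). The interaction was -0.44 on the log2 scale (95% interval -0.73 to -0.16) and did not pass the limma test (adjusted p = 0.325).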

How the results depend on the processing

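Notch2 and Jag1 in WT with FICZ, Jag1 under FICZ between genotypes, and Jag2 between genotypes under both treatments were called in all alternatives run for them. With the GC and length trend removed, alone or with a replicate block, 0 members were called in AHR KO with FICZ, and 0 with the trend of GC content alone removed, an alternative chosen after seeing the data. Leaving out 1 library gave 0 to 2 members there (0 without AHR KO DMSO replicate 1 or AHR KO FICZ replicate 3, 1 without AHR KO DMSO replicate 3), 2 to 4 in WT with FICZ, 2 to 3 between genotypes under FICZ, 1 to 1 under DMSO and 0 to 0 for the interaction. The Nrarp call was lost without WT DMSO replicate 2 (adjusted p = 0.0992), WT DMSO replicate 3 (0.0758) or WT FICZ replicate 1 (0.055), while Notch1 in WT was gained without WT DMSO replicate 2 (0.0318) or WT FICZ replicate 2 (0.0298). The log2 change of Notch1 in WT was 0.42 in the main analysis. It was lower without WT DMSO replicate 3 (0.21) or WT FICZ replicate 1 (0.28). It was higher without WT DMSO replicate 2 (0.62), WT FICZ replicate 2 (0.51) or WT FICZ replicate 3 (0.47). With the GC and length trend removed it was 0.11 (adjusted p = 0.622). The cause of these moves was not tested.

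Same-numbered libraries of a genotype had correlated deviations of 0.035 to 0.050, and the value of both AHR KO pairs is the same because each group holds 2 libraries. Whether they share an animal is not given in the labels, so they were not treated as pairs. The sample titles number the WT DMSO and AHR KO libraries differently from the sample descriptions, and all replicate numbers here are those of the descriptions. With the replicate block the members called were 3 in WT and 2 in AHR KO with FICZ, 0 for the interaction, 1 between genotypes under DMSO and 3 under FICZ. With the replicate block by line within genotype they were 2 in WT, where Nrarp was lost (adjusted p = 0.0815), and 3 in AHR KO, where Notch1 was gained (0.0377). Over all genes, the calls with FICZ went from 3928 to 2315, 1902 (with the replicate block) and 2391 (GC alone) in WT as the trend was removed, and from 2509 to 697, 502 and 664 in AHR KO. Leaving out 1 library lowered them to 1990 in WT (without WT DMSO replicate 2), 420 in AHR KO (without AHR KO DMSO replicate 1), 23 for the interaction (from 57, without either AHR KO DMSO library), and between genotypes to 389 under DMSO (from 1153, without AHR KO DMSO replicate 3) and 1312 under FICZ (from 2544, without AHR KO FICZ replicate 3). The calls of the other pathway genes fell from 15 to 6, 4 and 9 in WT and from 10 to 2, 1 and 2 in AHR KO as the trend was removed, and to 5 in AHR KO with no filter. Leaving out 1 library gave 2 to 7 of them between genotypes under DMSO (from 4, which include Dclk1), 5 to 15 under FICZ (from 13) and 0 to 1 for the interaction. Fitting only the groups compared gave 8 of them under each treatment, and the replicate block with the trend removed gave 7 under DMSO.

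Log2 changes that turned sign under the GC and length trend, the same with the replicate block, and the GC trend alone were, in that order, -0.30, -0.26 and -0.28 for Jag2 in WT, -0.12, -0.12 and -0.093 for Jag2 in AHR KO, and -0.019, -0.028 and -0.00918 for Rfng in WT. Under the first pair of these, Mib2 in AHR KO was -0.014 and -0.014 and the Notch1 interaction -0.0078 and -0.019. Hes6 in AHR KO was -0.0040 with the GC trend alone. The Notch1 interaction was -0.014 with the replicate block by number and -0.13 by line, and Lfng in WT was 0.00038 with median-of-ratios scaling. Leaving out 1 library gave values on both sides of 0 for Lfng in WT (-0.11 to 0.16), Dll1 in AHR KO (-0.72 to 0.55), Hes1 in AHR KO (-0.030 to 0.16), the interactions of Notch1 (-0.20 to 0.21) and Hes1 (-0.025 to 0.17), and, between genotypes under FICZ, Notch2 (-0.062 to 0.11) and Dll1 (-0.12 to 0.77). None of these changes was called in the main analysis except Jag2, Mib2 and Hes6 in AHR KO and Rfng in WT.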
